A study of Mus musculus with 11 samples.

Results

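The respiratory chain passes electrons to oxygen in the inner membrane of mitochondria and uses the proton gradient that this builds to make ATP, and most of its subunits are encoded in the nucleus. Expression of these nuclear genes in the liver was examined after a miRNA decoy, with 81 of the 13669 genes of the count table as members. Members were chosen by symbol alone, as the *Nduf* genes of the a, b, c, s and v series, *Sdha* to *Sdhd*, the *Uqcr* genes, the *Cox* genes numbered 4 to 8 with a letter a to c, and the *Atp5* genes. Another 9 rows that met this rule carry the pseudogene ending -ps and were left out. The members were 38 genes of complex I, 4 of complex II, 8 of complex III, 13 of complex IV and 18 of complex V (ATP synthase). *Ndufa4* was placed with complex IV, where its protein is known to work, although its name is that of a complex I gene. All 81 members had enough reads to be tested. GENCODE M21, an annotation of the mouse genome build GRCm38, lists *Cox6c2* and *Ndufb4c* as processed pseudogenes and the other 78 as protein-coding, apart from *Ndufb1*. It lists *Ndufb1* as a non-coding transcript under the name *Ndufb1-ps*. That row was kept because the rule used the symbols of the count table.

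The 11 livers came from wild-type male C57BL/6J mice on regular chow, each injected in the tail vein with a recombinant adeno-associated virus of serotype 8. In 6 mice (AAV-TuD) the virus expressed a tough decoy, an RNA hairpin that binds *miR-379* and *miR-541*, both from the *miR-379/miR-410* cluster, and in 5 mice (AAV-NC) it expressed a negative control sequence. Both vectors used the liver-specific LP1 promoter and carried a mutated EGFP sequence that is not translated, so transgene RNA was made in the control livers too. The mice were killed after a fast of some hours, and neither their age nor the time since injection is given for each animal.

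Complex I takes electrons from NADH and complex II takes them from succinate. Complex III hands them on to cytochrome c, and complex IV passes them to oxygen. Complexes I, III and IV pump protons, and complex V lets the protons flow back while it makes ATP. The catalytic cores of complexes I, III, IV and V include proteins of the mitochondrial genome, and many of the nuclear genes encode accessory subunits around these cores. The liver needs this ATP for gluconeogenesis and urea synthesis. The study reported greater mitochondrial mass by staining and higher oxygen consumption of liver mitochondria with the decoy. From its RNA sequencing it listed oxidative phosphorylation among the pathways enriched in lower genes, with a gene set other than the members here. The comparison here asks whether the RNA of the nuclear subunit genes differed between the groups.

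Libraries were made from the 3′ ends of polyadenylated RNA, so a transcript gives about 1 read whatever its length. Levels can be compared between genes only roughly. Some members share their 3′ ends with other genes, and subunits that are partners in a complex were read at very unequal levels, as described below. Between 8148531 and 12043959 reads were counted per liver, and the members took between 0.681% and 1.18% of them. Major urinary protein (*Mup*) genes took between 8.09% and 38.6%, and without these reads the share of the members lay between 1.11% and 1.31%. Levels are given as CPM (reads of a gene for each 1e6 reads counted) after scaling with the TMM method of edgeR, whose factors lay between 0.667 and 1.235. AAV-NC liver 8 and AAV-TuD liver 10 stood apart in some members, as described below, and calls of members are given with and without them.

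The levels of the nuclear respiratory chain genes differed little between the groups. In AAV-TuD livers 4 members were lower (*Ndufb5*, *Ndufa12*, *Ndufb9* and *Cox6c2*) and 1 was higher (*Atp5if1*), at an adjusted p value under 0.05 from the quasi-likelihood test of edgeR with Benjamini-Hochberg adjustment over all 13334 genes tested. Of all genes tested 4.33% were lower and 7.24% were higher. By edgeR the share of members that were lower was thus near the background, and that of members that were higher was below it. By DESeq2 and by separation of the groups, both described below, the share of lower members was above that of all genes. Genes at the level of most members were also more often lower than all genes, as given below. Log2 fold changes (AAV-TuD minus AAV-NC) ran from -0.36 for *Uqcrc2* to 0.47 for *Atp5if1*, and 80 of the 81 members differed by less than 25%. The 95% confidence interval lay within ±0.5 on this scale for 74 members. The median over the members was -0.09, and 66 of 81 were below 0. The median was also -0.09 with DESeq2 and -0.08 with upper-quartile scaling, whereas with library size alone it was 0.15 (0.23 over all genes) and with cyclic loess normalization 0.0050 (-0.02 over all genes). On the TMM scale the median over all genes was 0.00.

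**Figure D1:**
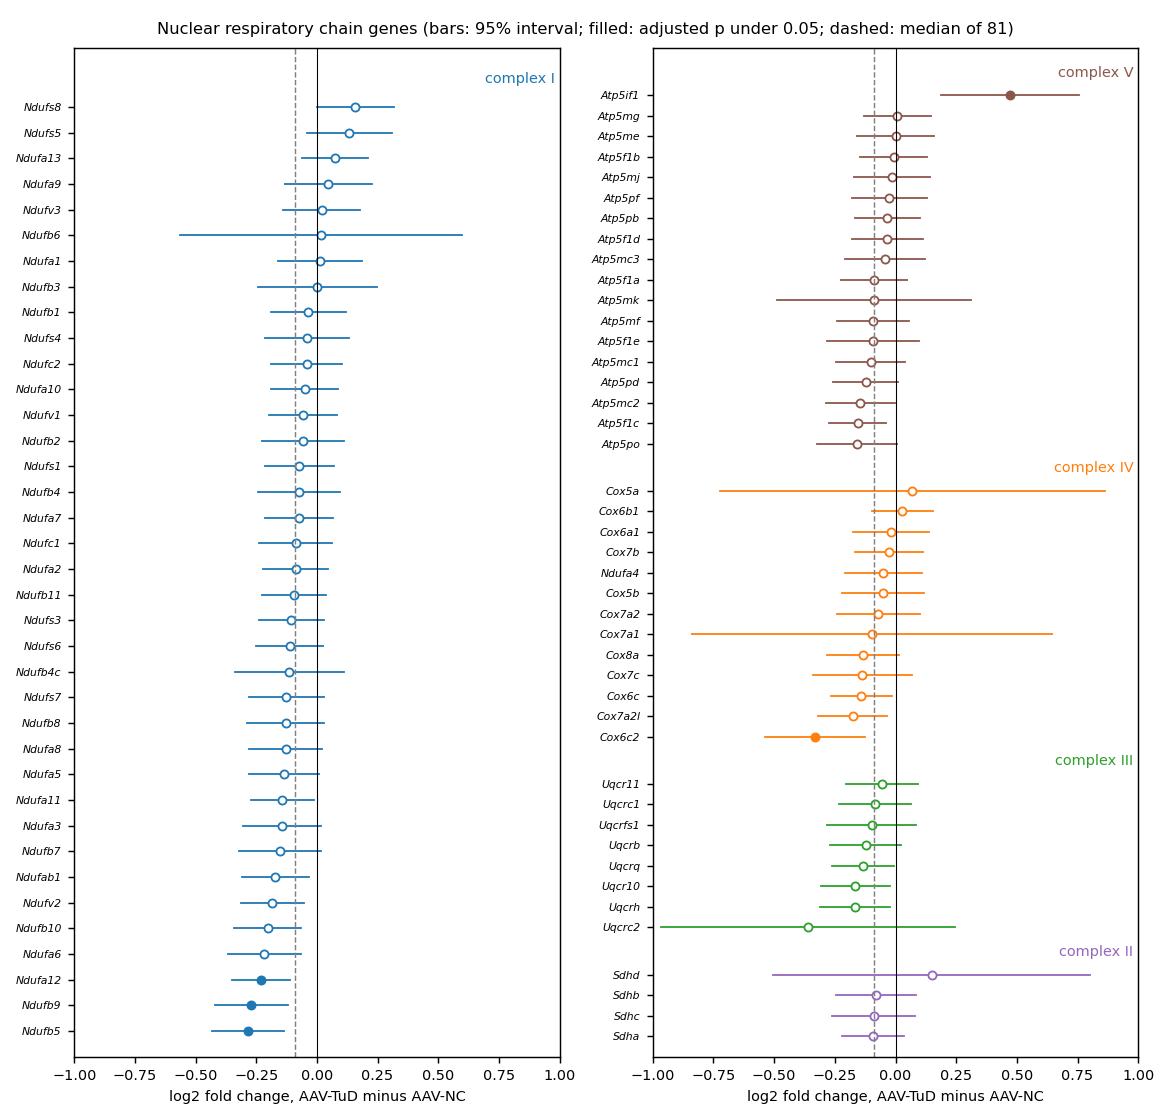
Log2 fold change of 80 members (horizontal axis, AAV-TuD minus AAV-NC, n = 5 and 6 livers) by complex, on the TMM scale, with 95% confidence intervals. The 5 filled points had an adjusted p value under 0.05, and 66 points lie left of 0. The dashed line at -0.09 is the median of all 81. It was 0.15 with library size alone (0.23 over all genes) and 0.0050 with cyclic loess.

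The 10 members in which every AAV-TuD liver lay below every AAV-NC liver were *Ndufb5*, *Ndufa12*, *Ndufb9*, *Ndufb10*, *Ndufa6*, *Ndufv2*, *Uqcrq*, *Cox6c*, *Cox6c2* and *Atp5f1c*. No member was separated in the opposite direction. Over all genes tested, 3.28% were separated in the lower direction and 4.11% in the higher one. DESeq2, the tool that the submitters' processing notes name, called these same 10 genes lower and *Atp5if1* higher, against 5.63% lower and 7.95% higher among the 13331 genes to which it gave an adjusted p value.

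Most members are abundant transcripts, and abundant genes were more often lower than others. Of the 81 members, 65 had a mean between 50 and 500 CPM, limits set after the values were seen. Over all 1723 genes at this level the median log2 fold change was -0.11, and 16.0% were lower and 3.77% higher by edgeR. The 65 members at this level had a median of -0.09, with 3 lower and none higher. Groups did not overlap in 12.8% of the 1723 genes in the lower direction and 2.61% in the higher one, and in 9 and 0 of the 65 members. DESeq2 called 371 of the 1723 genes and 9 of the 65 members lower, a smaller share of the members. No test of the members against these genes was made, and both are shown in the plot of fold change against level.

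**Figure D2:**
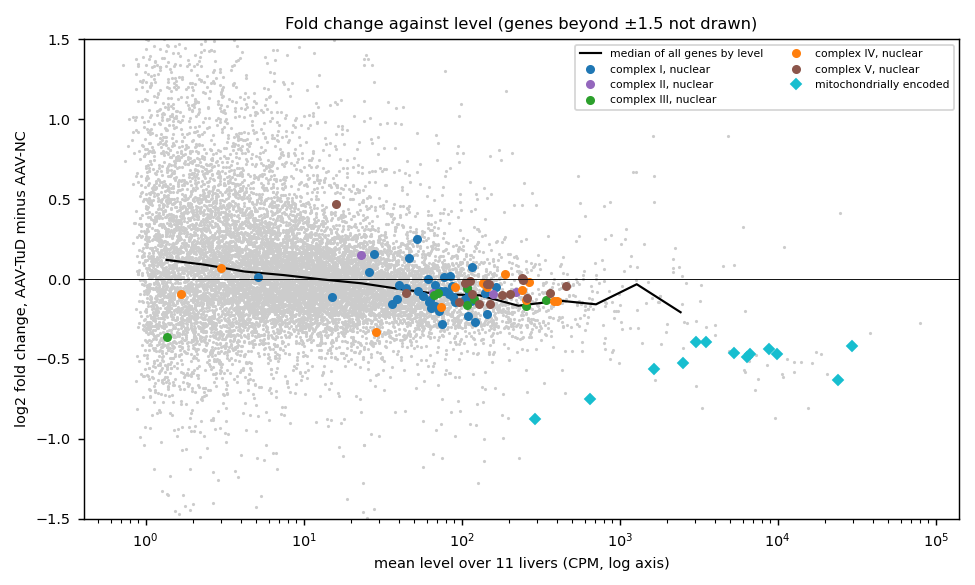
Log2 fold change (vertical axis, AAV-TuD minus AAV-NC, TMM scale) against mean level over 11 livers (CPM, log axis) for all tested genes (grey), the members by complex and the 13 mitochondrially encoded subunits, with the median of all genes by level as a line. Most members (65) lie between 50 and 500 CPM and near this line, whereas the mitochondrially encoded subunits lie between -0.88 and -0.39, with a median of -0.47 (-0.23 on library size alone).

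Complex I contributed 3 of the 4 members that were lower. *Ndufb5*, which encodes a subunit of the distal membrane arm (chromosome 3, 32736990 to 32751566 in GRCm38), had 85.1, 78.0, 85.4, 85.0 and 84.8 CPM in the 5 AAV-NC livers. The lowest, median and highest values of the 6 AAV-TuD livers were 59.3, 69.9 and 74.6 CPM. All AAV-TuD livers were below all AAV-NC livers, and AAV-NC liver 2 was the control nearest to them. The log2 fold change was -0.28 ± 0.07 (SE, 95% confidence interval -0.43 to -0.14, adjusted p = 0.0156 by edgeR), a level lower by 17.9%.

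*Ndufa12*, a subunit of the NADH-binding N module (chromosome 10, 94198720 to 94221443), had 125, 117, 115, 120.3 and 122 CPM in AAV-NC livers. In AAV-TuD livers its lowest, median and highest values were 99.0, 102 and 106 CPM. The groups did not overlap, and the AAV-TuD livers varied little, with an SD of 2.22 CPM. The log2 fold change was -0.23 ± 0.06 (SE, 95% confidence interval -0.35 to -0.11, adjusted p = 0.016 by edgeR).

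*Ndufb9*, another subunit of the distal membrane arm (chromosome 15, 58933756 to 58939488), had 140.3, 129, 134, 132 and 139 CPM in AAV-NC livers. In AAV-TuD livers its lowest, median and highest values were 96.1, 112 and 123 CPM, again without overlap. The log2 fold change was -0.27 ± 0.07 (SE, 95% confidence interval -0.42 to -0.12, adjusted p = 0.0212 by edgeR). This call was lost without AAV-NC liver 1 or AAV-TuD liver 9, whereas those of *Ndufb5* and *Ndufa12* held with any single liver left out.

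**Figure D3:**
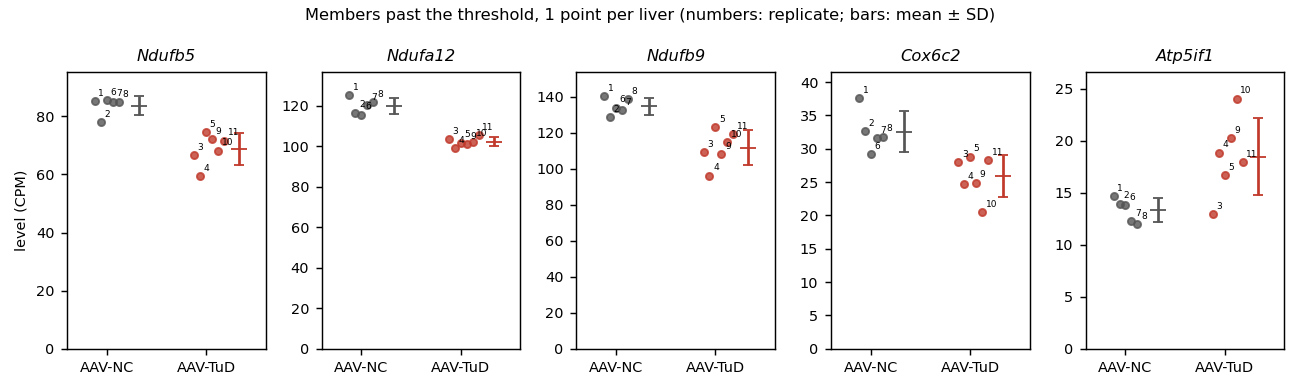
Level in CPM (vertical axis from 0) of the 5 members with an adjusted p value under 0.05, 1 point per liver with its replicate number, and mean ± SD of the 5 AAV-NC and 6 AAV-TuD livers. The groups do not overlap for *Ndufb5*, *Ndufa12*, *Ndufb9* and *Cox6c2*, and 5 of 6 AAV-TuD livers lie above every control for *Atp5if1*. On library size alone *Ndufa12* had a log2 fold change of 0.0026, against a median of 0.23 over all genes.

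These calls rest on several livers together. AAV-NC liver 8 and AAV-TuD liver 10 were both left out in an alternative chosen after the data had been seen. In it edgeR called none of the 81 members, with 13 at an unadjusted p value under 0.05. The share of all genes called in that alternative is not given here. The log2 fold changes were then -0.22 for *Ndufa12* (adjusted p = 0.0545), -0.27 for *Ndufb5* (adjusted p = 0.0557) and -0.26 for *Ndufb9* (adjusted p = 0.0652). On library size alone all 3 lay between -0.06 and 0.0026, where the median over all genes was 0.23.

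The N module, which holds the NADH-oxidizing site, had 10 members, of which 9 were below 0 and *Ndufa12* was lower. *Ndufv2*, an iron-sulfur subunit of this site, had means of 68.5 ± 3.12 and 60.3 ± 1.92 CPM and a log2 fold change of -0.18 (adjusted p = 0.0611), and *Ndufa6* had means of 156 ± 11.9 and 134 ± 8.40 CPM and -0.22 (adjusted p = 0.058). The groups did not overlap in either, although neither passed the threshold in edgeR. *Ndufv1*, which carries the flavin of the NADH site, had means of 110.2 ± 3.90 and 106 ± 7.21 CPM and a log2 fold change of -0.06.

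The Q module, where ubiquinone is reduced, had 3 of 6 members above 0 and none past the threshold. *Ndufs8*, an iron-sulfur subunit, had means of 26.4 ± 1.38 and 29.5 ± 2.08 CPM and a log2 fold change of 0.16 (adjusted p = 0.193), with 4 of 6 AAV-TuD livers above every control.

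The membrane arm pumps the protons. Its distal part had 12 members, 10 below 0 and 2 of them past the threshold (*Ndufb5* and *Ndufb9*), with a median of -0.11, and *Ndufb10* had means of 77.6 ± 4.34 and 67.4 ± 3.63 CPM without overlap (adjusted p = 0.0564). Its proximal part had 9 members with a median of -0.05 and none past the threshold, among them *Ndufa10*, the complex I member with the highest level (168 ± 5.57 and 162 ± 10.3 CPM), and *Ndufs5*, at 44.0 ± 4.97 and 48.3 ± 2.88 CPM and a log2 fold change of 0.13 (adjusted p = 0.323). *Ndufab1*, the mitochondrial acyl carrier protein, had -0.17 (adjusted p = 0.0986). *Ndufb6* had the lowest level of the complex, with means of 5.09 ± 1.85 and 5.15 ± 1.64 CPM.

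Complex II is the 1 respiratory complex made by nuclear genes alone and is also an enzyme of the citric acid cycle. No gene of it passed the threshold. *Sdha*, the flavoprotein, had 169.6, 153, 173, 161 and 163 CPM in AAV-NC livers and 146, 153 and 162 CPM as lowest, median and highest values in AAV-TuD livers. *Sdhb*, the iron-sulfur subunit, had 235, 203, 245, 236 and 226 CPM and 196, 215 and 248 CPM. The groups overlapped in both, and the 95% confidence intervals of the log2 fold change were -0.22 to 0.04 for *Sdha* and -0.25 to 0.09 for *Sdhb*. The membrane anchor *Sdhc* had means of 68.0 ± 5.76 and 63.9 ± 5.96 CPM and a log2 fold change of -0.09 ± 0.08 (SE). *Sdhd*, the other anchor, had 28.2, 21.1, 24.5, 26.2 and 9.44 CPM in AAV-NC livers and between 7.67 and 32.1 CPM in AAV-TuD livers. It was lowest in AAV-NC liver 8 and AAV-TuD liver 10, and its interval of -0.50 to 0.80 was wide.

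Complex III had 8 members, all below 0 on the TMM scale, between -0.36 and -0.06, and none past the threshold in edgeR. On library size alone their median was 0.10, against 0.23 over all genes. *Uqcrq*, an accessory subunit and the most abundant member of the complex, had 360.1, 363, 341, 363 and 356 CPM in AAV-NC livers. Its lowest, median and highest values in AAV-TuD livers were 303, 330.3 and 333 CPM. All AAV-TuD livers were below all AAV-NC livers, with a log2 fold change of -0.13 ± 0.06 (SE, adjusted p = 0.173 by edgeR and 0.0383 by DESeq2). *Uqcr10* had the smallest p value of the complex, with means of 116 ± 7.61 and 103 ± 5.54 CPM and -0.17 (adjusted p = 0.121). *Uqcrfs1*, the Rieske iron-sulfur protein, had means of 69.3 ± 5.14 and 64.8 ± 7.61 CPM and a log2 fold change of -0.10.

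The core subunits of complex III were read at very unequal levels. *Uqcrc1* had means of 73.2 ± 4.26 and 69.0 ± 4.70 CPM, whereas *Uqcrc2*, whose protein is its partner in equal number, had 1.56 ± 0.527 and 1.21 ± 0.381 CPM and between 0.755 and 2.15 CPM in AAV-NC livers. The log2 fold change of *Uqcrc2*, the most negative of all members, had an interval of -0.97 to 0.25. The same low level was found for *Cox5a* (2.94 ± 1.13 and 3.06 ± 1.32 CPM) beside *Cox5b* (148 ± 14.4 and 143 ± 11.3 CPM). With a mean of 13.7 reads per liver for *Uqcrc2* and 30.0 for *Cox5a*, differences of the size seen in the called members were not detectable for these genes.

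Complex IV had 13 members, 11 of them below 0 on the TMM scale and 1 lower. The lower gene, *Cox6c2*, is an intronless copy of *Cox6c* on chromosome 12 (56373593 to 56373823, minus strand), while *Cox6c* lies on chromosome 15 (35925886 to 35938246, minus strand). Over the 231 bases of the coding sequence of *Cox6c* (GENCODE M21) they differ at 7 bases (97.0% identity). The copy keeps the reading frame to the stop at codon 77, with 5 changed residues. The stretches that hold 6 of the 7 differences are shown because the called gene is a near-copy of the expressed one, with the differing bases in capitals and positions counted from the A of the start codon.
*Cox6c* bases 1 to 30: atgAgttccgGtgcgctgttgcccaaacca
*Cox6c2* bases 1 to 30: atgCgttccgAtgcgctgttgcccaaacca
*Cox6c* bases 51 to 80: CaagcgtctgCgggttcatattgCtggcGc
*Cox6c2* bases 51 to 80: TaagcgtctgTgggttcatattgTtggcAc
The last difference is C225G, with the base of *Cox6c* first.

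*Cox6c2* had 37.6, 32.6, 29.2, 31.5 and 31.8 CPM in AAV-NC livers and 20.5, 26.5 and 28.8 CPM as lowest, median and highest values in AAV-TuD livers. The groups did not overlap, by a gap of under 1 CPM, and the log2 fold change was -0.33 ± 0.10 (SE, 95% confidence interval -0.54 to -0.13, adjusted p = 0.0361 by edgeR). *Cox6c* itself, an abundant subunit of complex IV, had 425, 393, 417, 406 and 393 CPM and 359, 370.4 and 375 CPM. It was separated too, with a log2 fold change of -0.14 ± 0.06 (SE, adjusted p = 0.148 by edgeR and 0.0117 by DESeq2). Reads of *Cox6c2* came to between 7.01% and 8.86% of those of *Cox6c* in AAV-NC livers and to between 5.51% and 7.80% in AAV-TuD livers. How reads that match both genes were counted is not given in the sources used here, so *Cox6c2* is uncertain. Its call was lost without AAV-NC liver 1, 2, 7 or 8 or AAV-TuD liver 4, 9 or 10, and without both AAV-NC liver 8 and AAV-TuD liver 10 its log2 fold change was -0.28 (adjusted p = 0.0868).

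Other members of complex IV come in isoforms, of which the liver forms dominated. *Cox7a2*, the liver form, had means of 247 ± 28.9 and 235 ± 15.0 CPM. *Cox7a1*, the heart and muscle form, had 1.73 ± 0.803 and 1.63 ± 0.709 CPM, between 0.231% and 1.22% of *Cox7a2* in any liver. The study lists the protein of *Cox7a1* among the mitochondrial proteins most raised with the decoy, a measure other than RNA. *Cox6a1* (267 ± 17.6 and 264 ± 20.6 CPM), *Cox6b1* (186 ± 4.25 and 189 ± 9.16 CPM), *Cox7b* (138 ± 10.2 and 135 ± 5.57 CPM) and *Cox8a* (269 ± 19.1 and 245 ± 15.4 CPM) were the forms of their families in the table, and other forms are not analysed here. None of these passed the threshold, and their log2 fold changes lay between -0.13 for *Cox8a* and 0.03 for *Cox6b1*. *Cox7a2l* had means of 78.6 ± 4.24 and 69.6 ± 4.30 CPM and a log2 fold change of -0.18 (adjusted p = 0.102). *Cox7c*, with the highest level of the complex, had means of 425 ± 38.4 and 386 ± 48.9 CPM, and *Ndufa4* of 93.1 ± 5.35 and 89.9 ± 8.17 CPM with a log2 fold change of -0.05.

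Complex V held the 1 member that was higher. *Atp5if1* (chromosome 4, 132530555 to 132533659, minus strand) encodes the inhibitory factor that stops ATP synthase from running backwards and breaking down ATP. It had 14.68, 13.97, 13.84, 12.27 and 11.97 CPM in AAV-NC livers and 12.96, 18.41 and 24.06 CPM as lowest, median and highest values in AAV-TuD livers. AAV-TuD liver 3 lay within the range of the AAV-NC livers, and the other 5 above it. The log2 fold change was 0.47 ± 0.13 (SE, 95% confidence interval 0.19 to 0.75, adjusted p = 0.0322 by edgeR and 0.017 by DESeq2), a level higher by 38.6%. It was the lowest of the 18 genes of complex V in level.

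The call of *Atp5if1* was not stable. It was lost without AAV-NC liver 2, 6, 7 or 8 or AAV-TuD liver 4, 9 or 10, and without both AAV-NC liver 8 and AAV-TuD liver 10 its log2 fold change was 0.34 (adjusted p = 0.126). Markers of other cells went with *Atp5if1* in the AAV-TuD livers with its lowest and highest levels, but not in every liver. AAV-TuD liver 3, where *Atp5if1* was lowest among AAV-TuD livers, also had the lowest summed level of Kupffer cell markers (101 CPM over 7 genes) and of leukocyte markers (31.8 CPM over 4 genes), and AAV-TuD liver 10 had the highest of all 3 (24.1, 283 and 94.6 CPM). Between these, AAV-TuD liver 5 had 16.7 CPM of *Atp5if1* and 213 CPM of Kupffer cell markers, and AAV-TuD liver 9 had 20.2 and 175 CPM. Among controls, AAV-NC liver 7 had the highest sums of Kupffer cell and leukocyte markers (136 and 35.8 CPM) with 12.27 CPM of *Atp5if1*. The part of these cells in the result was not tested.

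No other gene of complex V passed the threshold in edgeR. The head and central stalk, where ATP is made, had 5 members, all below 0 on the TMM scale. *Atp5f1c*, the rotating gamma subunit, had 159.8, 165, 161, 154 and 161 CPM in AAV-NC livers and 139.9, 143 and 149 CPM as lowest, median and highest values in AAV-TuD livers. The groups did not overlap, and the log2 fold change was -0.16 ± 0.06 (SE, adjusted p = 0.0817 by edgeR and 0.00986 by DESeq2). The alpha and beta subunits *Atp5f1a* and *Atp5f1b*, which form the catalytic ring, had log2 fold changes of -0.09 (95% confidence interval -0.22 to 0.05) and -0.01 (-0.15 to 0.13).

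The c ring of ATP synthase is encoded by 3 genes whose mature protein is the same. *Atp5mc3* gave between 59.8% and 65.2% of their summed level in each liver, *Atp5mc1* between 22.4% and 27.4% and *Atp5mc2* between 12.3% and 14.3%. *Atp5mc3*, at 468 ± 32.0 and 454 ± 36.6 CPM, was the most abundant of all 81 members. Their log2 fold changes were -0.04 ± 0.08, -0.10 ± 0.07 and -0.14 ± 0.07 (SE), with none past the threshold. The 5 membrane subunits had a median of -0.01 and the 4 genes of the peripheral stalk of -0.08. *Atp5mg* (log2 fold change 0.01) shares its 3′ end with several processed pseudogenes, of which *Gm10221* alone had 19054 reads over the 11 livers against 26796 for *Atp5mg*, so its level is uncertain.

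Summed over its members, each complex had a lower mean in AAV-TuD livers on the TMM scale, as the plot of sums by liver shows. Complex I summed to 3015, 2914, 2953, 3007 and 3012 CPM in AAV-NC livers and to between 2624 and 2904 CPM in AAV-TuD livers. Complex III summed to 1141, 1128, 1086, 1116 and 1152 CPM and to between 958 and 1062 CPM. In these 2 the groups did not overlap. Of the 1723 single genes at 50 to 500 CPM, 12.8% were separated in this direction, and their median log2 fold change was -0.11. Sums of other genes at this level were not made, so the separation is not shown to be particular to these complexes. The means ± SD were 483 ± 30.9 and 458 ± 19.6 CPM for complex II, 2295 ± 54.1 and 2157 ± 74.9 CPM for complex IV and 3336 ± 85.3 and 3197 ± 113 CPM for complex V in AAV-NC and AAV-TuD livers, and in these 3 the groups overlapped. Without TMM the sum of all 81 members was 9456 ± 1523 CPM in AAV-NC livers and 10465 ± 1478 CPM in AAV-TuD livers. The direction was thus the opposite on that scale, where the median log2 fold change over all genes was 0.23.

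**Figure D4:**
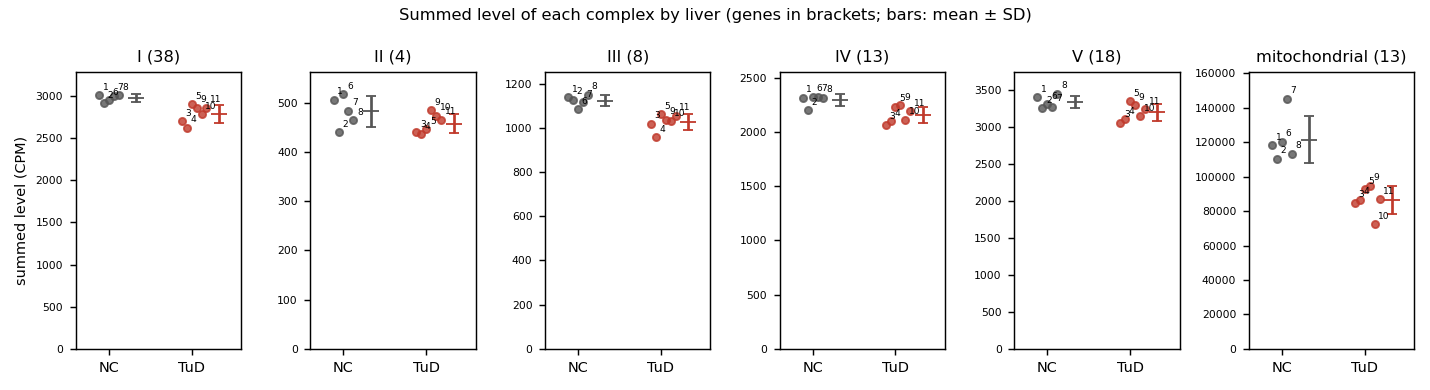
Summed level in CPM on the TMM scale (vertical axes from 0) of the nuclear members of each complex and of the 13 mitochondrially encoded subunits, 1 point per liver with its replicate number, and mean ± SD of 5 AAV-NC and 6 AAV-TuD livers. The groups do not overlap for complexes I and III and the mitochondrially encoded subunits. Of the 1723 single genes at 50 to 500 CPM, 12.8% were separated in the lower direction. On library size alone the sum of the nuclear members was higher in AAV-TuD livers, where the median log2 fold change over all genes was 0.23.

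The subunits that the mitochondrial genome adds to complexes I, III, IV and V had more negative log2 fold changes than most of the nuclear ones. Of these 13 genes, 11 were lower by edgeR and none was higher, with a median log2 fold change of -0.47. Values ran from -0.88 for *mt-Nd4l* to -0.39 for *mt-Nd6*. The genes named next, other than *mt-Cytb*, were picked for the smallest p values of the 13. They are single genes set beside medians and do not stand for all mitochondrial subunits of their complex. In complex I *mt-Nd4l* had -0.88 (adjusted p = 3.09e-04) and *mt-Nd3* -0.56 (adjusted p = 0.00384), beside a median of -0.09 over the 38 nuclear genes. In complex III *mt-Cytb* had -0.44 (adjusted p = 0.0277), beside -0.13 over 8 nuclear genes. In complex IV *mt-Co2* and *mt-Co3* had -0.49 and -0.47 (adjusted p = 0.0124 and 0.00905), beside -0.07 over 13, and in complex V *mt-Atp8* had -0.75 (adjusted p = 9.12e-04), beside -0.07 over 18. The values of both kinds come from the same livers and the difference between them was not tested. On library size alone 2 of the 13 were lower, with a median of -0.23 (0.23 over all genes). With AAV-NC liver 8 and AAV-TuD liver 10 left out 8 of the 13 were lower.

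Genes around the complexes were described from 4 lists of nuclear genes. Of 8 subunits outside the rule and electron carriers none passed the threshold, with *Cox4i1*, a complex IV subunit, nearest to it (202 ± 14.1 and 176 ± 3.17 CPM, log2 fold change -0.20, adjusted p = 0.0501). Of 50 assembly factors, which build the complexes but are not part of them, none passed the threshold in edgeR and 6 had an unadjusted p value under 0.05. DESeq2 called 1 gene in each of these lists, both lower. Of 20 regulators of mitochondrial transcription none was called by either tool, with 2 at an unadjusted p value under 0.05, and *Ppargc1a*, the coactivator known to drive mitochondrial biogenesis, had means of 12.6 ± 2.51 and 11.6 ± 2.35 CPM and *Tfam*, which packages mitochondrial DNA, of 29.7 ± 2.92 and 26.8 ± 2.32 CPM.

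Of 14 genes that mark mitochondrial mass 1 was higher and 1 lower. *Vdac1*, the main channel of the outer membrane, had 107, 94.2, 102, 99.6 and 95.1 CPM in AAV-NC livers and 137, 139.7 and 157 CPM as lowest, median and highest values in AAV-TuD livers. The groups did not overlap, with a log2 fold change of 0.53 ± 0.07 (SE, adjusted p = 2.52e-04), and its relatives *Vdac2* and *Vdac3* had -0.01 and -0.03. *Hspe1*, the small partner of the mitochondrial chaperone Hsp60, was lower (174 ± 11.8 and 142 ± 14.6 CPM, log2 fold change -0.29, adjusted p = 0.0261). This call was lost without AAV-NC liver 7 or 8 or AAV-TuD liver 4, 10 or 11. On library size alone the log2 fold change of *Hspe1* was -0.06 (adjusted p = 0.838), against a median of 0.23 over all genes. Citrate synthase (*Cs*), prohibitin (*Phb1*) and *Tomm20* did not pass the threshold, with log2 fold changes of 0.10, -0.11 and -0.01. The stains of prohibitin and TOM20 that the study reported as increased measured protein, not RNA.

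Markers of other liver cells differed between the groups. By edgeR 6 of 8 markers of stellate cells, 5 of 7 of Kupffer cells, 4 of 4 tested of cholangiocytes and 3 of 4 tested of leukocytes were higher, and none of 5 of sinusoidal endothelial cells. The summed level of stellate cell markers was between 193 and 249.8 CPM in AAV-NC livers and between 336 and 447 CPM in AAV-TuD livers, that of Kupffer cell markers between 85.6 and 136 and between 101 and 283 CPM, that of cholangiocyte markers between 20.3 and 40.9 and between 47.5 and 79.3 CPM, and that of leukocyte markers between 20.8 and 35.8 and between 31.8 and 94.6 CPM. No marker of these lists was at 0 in a group mean. Of 8 hepatocyte markers *Hnf4a* was lower (log2 fold change -0.38, adjusted p = 0.015) and the rest did not pass the threshold, while their summed level, led by albumin, was between 33623 and 39575 CPM in AAV-NC livers and between 42294 and 48543 CPM in AAV-TuD livers. In bulk liver, fewer hepatocytes and less of these RNAs per hepatocyte cannot be told apart, and the part of cell composition in the lower members was not tested.

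A few members varied between single livers far more than between the groups. *Cox5a* had 1.27 CPM in AAV-NC liver 8 and 0.517 CPM in AAV-TuD liver 10, against 2.63 to 4.37 CPM in the other 9. *Sdhd* had 9.44 and 7.67 CPM against 19.9 to 32.1 CPM, *Ndufb6* 2.24 and 2.59 CPM against 4.38 to 7.22 CPM, and *Atp5mk* 33.3 and 22.9 CPM against 38.2 to 61.0 CPM. With *Cox7c*, *Ndufb3*, *Ndufa4* and *Ndufb1*, which differed less, 8 of 81 members were lower in both livers than in any other liver, and over all genes tested this held for 2.51%. Another 4 members (*Cox7a2*, *Ndufb2*, *Atp5me* and *Atp5mj*) were higher in both livers than in any other, which held for 2.02% of all genes tested. The 2 livers belong to different groups and were singled out after the values were seen. The last 300 bases of these 8 transcripts (GENCODE M21) have a GC content between 34.7% and 39.3%, against a median of 45.3% over the members. Another 15 members also had a GC content of at most 39.3% and were not lowest in both livers, among them *Ndufb2* at 37.0%, which was highest in both. The part of base composition in this was not tested.

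**Figure D5:**
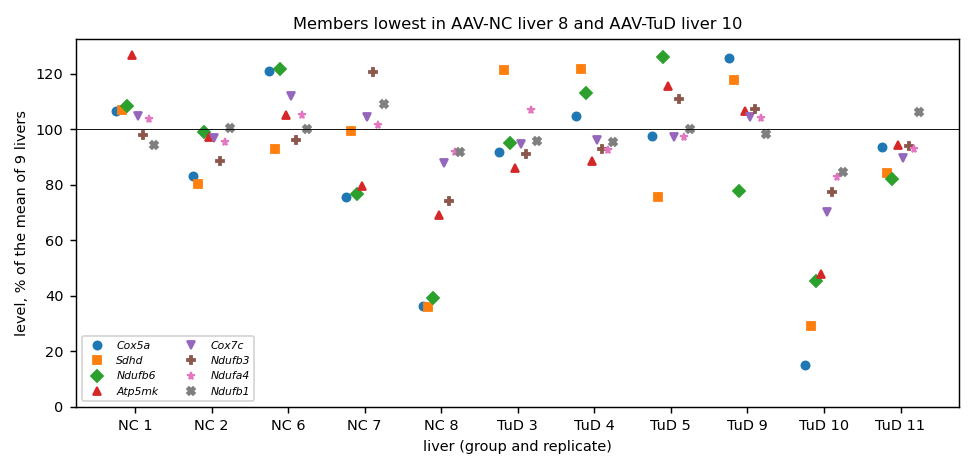
Level of the 8 members that were lowest in AAV-NC liver 8 and AAV-TuD liver 10, in each of the 11 livers (horizontal axis), as a percentage of the mean of the other 9 livers (vertical axis from 0). *Cox5a* stands at 36.4% and 14.9% in these 2 livers and *Sdhd* at 35.8% and 29.1%, while *Ndufa4* and *Ndufb1* stand above 80%.

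The 2 miRNAs that the decoy binds recognize targets mainly through bases 2 to 8 of their mature sequence, the seed, shown here in capitals from RefSeq (GRCm38.p6).
*miR-379-5p*: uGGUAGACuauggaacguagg
*miR-541-5p*: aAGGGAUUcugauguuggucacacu
Matches to these seeds were counted in the longest 3′ UTR of a protein-coding transcript in GENCODE M21, which was known for 78 members. Their 3′ UTRs are short, with a median of 202 bases against 1214 bases over 10923 tested protein-coding genes. A match to the seed of *miR-379-5p* was found in 1 member (1.28%, against 5.20% of the tested genes), and to that of *miR-541-5p* in 4 members (5.13% against 8.95%). Per kilobase of 3′ UTR the members held 0.0259 and 0.129 matches and the tested genes 0.0324 and 0.0572. Of the 5 members past the threshold, the 4 with a 3′ UTR to search held no match to either of these seeds, and *Cox6c2* was not searched. The study reports that the decoy also lowered the host transcripts of the cluster and further miRNAs made from them. Seeds of those miRNAs were not searched, so the counts do not cover all miRNAs that were lowered.

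The members that hold a match are shown with the match in capitals within 30 bases of their 3′ UTR.
*Ndufv2*, *miR-379-5p*: ccactatctcgGTCTACCtgtgaagaccta
*Ndufs1*, *miR-541-5p*: gacattgctgtAATCCCTtataagttaatg
*Ndufs7*, *miR-541-5p*: gataatcccagAATCCCTtgtgaataaacc
*Uqcrq*, *miR-541-5p*, first: aagttcatgacAATCCCTttctcagcacaa
*Uqcrq*, *miR-541-5p*, second: gtaagcattctAATCCCTttgctgatgagg
*Atp5mc1*, *miR-541-5p*: caagtgaatcaAATCCCTgtccccagtcac
The log2 fold changes of these 5 genes were -0.18, -0.07, -0.13, -0.13 and -0.10 in this order, all below 0 on the TMM scale and none past the threshold in edgeR. On library size alone they lay between 0.0449 and 0.161, below the 0.23 of all genes. The match in *Atp5mc1* lies at base 3307 of a 3′ UTR of 4252 bases, the longest of all members. Whether livers express that long form was not tested. A match of 7 bases is a description and does not show that the miRNA acts there.

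Promoters of these genes are known for sites of a few shared factors. In the RefSeq promoters (250 bases before to 50 after the start, either strand), which were given for 67 members, GCGCANGCG, the core of the site of NRF1, was present in 31.3%, against 15.1% of 8988 tested genes and 6.25% of all promoters in the set. The letters AAGATGGCG of YY1 were present in 10.4%, 3.73% and 1.40%, and CCGGAAG of GABP in 23.9%, 20.3% and 8.86%. The letters TCAAGGTCA of the ERR site were present in 2.99%, 0.278% and 0.423%. Of the called members with a promoter in the set, *Atp5if1* held the NRF1 letters, and *Ndufb5* and *Ndufa12* held none of the 4 motifs.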

How the data were processed

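Per the labels and the study's methods, total RNA of each liver was made into QuantSeq 3′ libraries, reads were aligned to GRCm38 with STAR 2.5.3a and counted per gene with Rsubread, and the submitters' processing notes also name DESeq2 1.38.3. The authors deposited raw read counts. The annotation, the strand setting and whether reads with several matches were kept are not given in the sources used here. A gene was tested where 5 or more livers each gave it over 10 reads (13334 of 13669), by edgeR 4.0.16 (R 4.3.3) with its quasi-likelihood method, TMM scaling, group as the only term and Benjamini-Hochberg adjustment over all genes tested. DESeq2 1.42.0, limma 3.58.1 voom, other scalings, other filters and the omission of each liver were alternatives. Nothing in the labels states a batch. Groups were taken from the labels, and the mice are treated as separate animals. Genes were named by a rule, namely the called members, the member of each complex with the highest level, the lowest level or the smallest p value, complex II, isoform families, the 5 largest and 5 smallest fold changes, and called genes of the accessory lists, and others were named after their values were seen. Members and gene lists were chosen with earlier results of these data known. Scripts were tested on simulated data. The values of 1 member are not reported here.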

Additional observations from a re-analysis of the deposited data

Results flagged for a closer look

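In 6 of 86 groups of 5 or 6 livers (6.98%) 1 liver stood apart by Dixon's criterion, a gap to the next liver that is large against the range of the group, and chance alone gives about 1 in 20. *Ndufb5* had 1 low control, AAV-NC liver 2 at 78.0 CPM (gap over range 0.91). The same liver had the lowest summed level of complex IV among controls, 2199 CPM (0.907). *Cox6b1* was lowest in AAV-NC liver 6, at 178 CPM (0.714). Among AAV-TuD livers, *Cox7a1* was highest in liver 9 at 2.996 CPM (0.703), *Uqcrq* was lowest in liver 4 at 303 CPM (0.688), and *Hspe1* was highest in liver 5 at 170.0 CPM (0.639).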

How the results depend on the processing

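The counts of called members depended on the processing. DESeq2 called 10 members lower, and a threshold of 0.1 on the adjusted p gave 9. Library size alone and cyclic loess gave 0, as did leaving out AAV-NC liver 8 and AAV-TuD liver 10, which was chosen after the data were seen; cyclic loess and the omission of these livers also gave 0 members higher. Leaving out 1 liver at a time gave 2 to 4 lower and 0 to 1 higher. Apart from DESeq2, the shares of all genes called under these settings are not given here. A change in the members therefore cannot be told apart from a change in calls over all genes. The 2 called nuclear genes of the accessory lists became 5 with DESeq2, 8 at the threshold of 0.1, 1 with library size alone, 1 with cyclic loess and 1 to 4 without 1 liver. Of the 11 lower mitochondrially encoded subunits 2 were called with library size alone, 6 with cyclic loess, 8 to 10 without 1 liver, and 4 without the 50 most abundant genes, which left 4 of the 13. The median over the members was 0.15 with library size alone, 0.0050 with cyclic loess and -0.10 to -0.07 without 1 liver. *Ndufa12* had 0.0026 with library size alone, where the median over all genes was 0.23. The causes of these changes were not tested. No paired analysis was possible because the groups share no replicate number.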
